A study of Mus musculus with 8 samples.

Results

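Glutamate and GABA are the main excitatory and inhibitory transmitters of the brain, and the genes described here are those for the receptors that bind them. The members were found by symbol alone: genes beginning with Gria, Grik, Grid, Grin or Grm and a number, and genes beginning with Gabr or Gabbr. The rule found 41 of the 14166 genes in the count tables, and it used no measured value. They comprised 4 AMPA, 5 kainate, 3 delta and 7 NMDA genes, 7 metabotropic glutamate receptor genes, 13 GABA-A and 2 GABA-B receptor genes. One of the genes counted as delta by its symbol encodes a scaffold protein and is itself no receptor. Counts and sums cover all members, and some members are not described singly.

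Nuclei came from the dorsal telencephalon, the tissue that forms the cerebral cortex, of C57BL/6J mouse embryos at day E15.5. The 4 wildtype samples were compared with 4 samples of Pantr2-/- embryos, called knockout here; Pantr2 is a long noncoding RNA gene. No treatment is named, both groups share strain, age and tissue, and the labels do not say which part of Pantr2 is missing or how many embryos went into a sample. Since nothing names the samples as separate animals, the p-values measure the spread between these samples, which may in part be technical.

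Receptors of both transmitters are made before cortical synapses mature, and in embryonic cortex they are known to respond to transmitter in the surrounding fluid, in dividing cells as well as in young neurons. AMPA, kainate and NMDA receptors are ion channels built of several subunits, delta receptors bind synaptic organisers more than glutamate, and metabotropic receptors act through G proteins. GABA-A receptors are chloride channels of mixed alpha, beta and gamma subunits, and GABA-B receptors are pairs of G-protein-coupled subunits. The subunit makeup sets the properties of a channel: Gria2, for example, encodes the AMPA subunit that keeps calcium out.

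The tables held 67319 nuclei, 33781 wildtype and 33538 knockout, with 7280 to 10921 nuclei and 20446698 to 34083796 unique molecular identifiers (UMIs, each standing for 1 captured transcript) per sample. A median nucleus carried 2645 to 2891 UMIs among wildtype and 2570 to 2905 among knockout samples. Barcodes were shared between libraries by 1023 nuclei. The authors' 7 clusters were used as deposited, and levels are given as counts scaled to a common total of UMIs (CPM) in a sample's nuclei in a cluster, after scaling by TMM factors for single genes. Where values of all samples are listed, they follow the replicate numbers 1 to 4. By markers, cluster 1 is upper-layer-neuron-like, with Cux2 at 756 CPM in wildtype and 61.6 in cluster 3, and clusters 2 and 3 are deep-layer-neuron-like, with Sox5 at 4665 and 4970.4 CPM and 1366 in cluster 1. Cluster 4 is apical-progenitor-like, with Slc1a3 at 838 CPM and no more than 192 elsewhere, and cluster 5 is intermediate-progenitor-like, with Eomes at 85.1 CPM and no more than 27.0 elsewhere. Clusters 6 and 7 stay unnamed. Every sample held at least 314 nuclei of every cluster. A pair of wildtype libraries stood apart in RNA of another tissue: Ttr, a choroid plexus gene, was counted over the 7 clusters at 100.1 to 156 CPM in wildtype sample 3 and 22.5 to 49.7 in wildtype sample 4, against 0 to 3.81 CPM in the other six samples.

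Promoter windows of 250 bases before the start site were found in the RefSeq table of build GRCm38.p6 for 26 of the 41 genes, and they were rich in CG. For some of these genes the RefSeq start site lay far from the gene start of another annotation, by up to 11697 bases. Such windows were kept in the figures that follow and may not be the gene's main promoter. Their median GC content was 63.6%, against 52.4% over all 32851 windows of that length, and they held a median of 13.5 CG dinucleotides against 6, ranging from 0 in Gabra3 to 42 in Grik3. The following 4 are shown because their genes carry the results below: Gabrg3 and Grm3 fell in several clusters, Gria2 is the most abundant receptor gene per length, and Grik2 moved in opposite directions in 2 clusters. Capitals mark the CG dinucleotides.
Gabrg3 (chr7:57387216-57387465, minus strand): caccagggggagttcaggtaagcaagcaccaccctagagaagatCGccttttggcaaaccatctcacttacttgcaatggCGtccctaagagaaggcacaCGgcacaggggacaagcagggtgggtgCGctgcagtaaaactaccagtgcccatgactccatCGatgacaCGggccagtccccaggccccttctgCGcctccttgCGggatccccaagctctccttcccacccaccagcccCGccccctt
Gria2 (chr3:80802836-80803085, minus strand): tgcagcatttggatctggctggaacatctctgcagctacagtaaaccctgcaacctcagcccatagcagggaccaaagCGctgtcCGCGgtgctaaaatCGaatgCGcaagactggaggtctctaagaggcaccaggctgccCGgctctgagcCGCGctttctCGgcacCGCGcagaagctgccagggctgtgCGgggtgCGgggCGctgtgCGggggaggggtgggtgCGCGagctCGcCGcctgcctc
Grik2 (chr10:49788755-49789004, minus strand): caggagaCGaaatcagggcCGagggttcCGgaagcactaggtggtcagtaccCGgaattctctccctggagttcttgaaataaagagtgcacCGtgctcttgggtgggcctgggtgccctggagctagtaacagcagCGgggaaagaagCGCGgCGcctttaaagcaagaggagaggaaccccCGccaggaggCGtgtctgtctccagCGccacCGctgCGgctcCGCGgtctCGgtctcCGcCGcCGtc
Grm3 (chr5:9725353-9725602, minus strand): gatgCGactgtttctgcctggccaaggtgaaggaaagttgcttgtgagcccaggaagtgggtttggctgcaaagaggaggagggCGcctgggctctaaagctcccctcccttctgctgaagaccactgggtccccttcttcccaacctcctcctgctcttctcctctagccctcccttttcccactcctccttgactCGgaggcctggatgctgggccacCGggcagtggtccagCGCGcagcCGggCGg
These windows hold 9 CG dinucleotides in Gabrg3, 19 in Gria2, 20 in Grik2 and 8 in Grm3. The core letters of a SOX motif, AACAAT on either strand, occurred in 1 of the 26 windows, that of Gabrg1, and in 9.42% of all windows. The octamer ATGCAAAT, the motif of POU factors, occurred in 0 of the 26 and in 1.60% of all windows.

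In wildtype nuclei, 31 of the 41 genes reached 10 CPM in at least 1 cluster and 24 reached 100 CPM. Per kilobase of gene span, Gria2 stood highest over all nuclei at 8.54 CPM per kb, followed by Gabbr1 at 3.34, Grik5 at 2.26, Gabra2 at 2.16, Grin2b at 1.76 and Grik2 at 1.51. The clusters were drawn from the same counts, so the differences in level between clusters that follow are a description without a test. Of the 31 genes, 13 were highest in cluster 6, 8 in cluster 3, 4 each in clusters 4 and 7, and 2 in cluster 1. These levels carry TMM factors within a cluster but none between clusters, and ranks of single genes with such factors are not given here. For 18 of the 31 the wildtype samples of the highest and the next cluster did not overlap. The share of all genes that do so is not given here, so this count cannot be read as a trait of receptor genes.

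Within the ionotropic families, subunits of 1 family peaked in different clusters. Among AMPA genes, Gria2 was highest in upper-layer-like cluster 1 (1895 ± 92.7 CPM, SD, n = 4), Gria1 in cluster 7 (593 ± 63.5), Gria3 in deep-layer-like cluster 3 (448 ± 23.6) and Gria4 in cluster 6 (660.3 ± 88.1). The kainate genes differed widely between clusters. Grik2 was at 2249 ± 106 CPM in progenitor-like cluster 4, overlapping cluster 6, and at 401 ± 47.5 in cluster 1, and Grik3 stood at 664 ± 41.3 CPM in cluster 3, 55.4 times its level in cluster 1. Grik1 had the widest range of the 31 genes, 62.2-fold, from 5.26 ± 1.26 CPM in cluster 2 to 327 ± 115 in cluster 6. Grik5, also a kainate subunit gene, was nearly flat at 131 to 149 CPM. Of the NMDA genes, Grin2b, the NMDA subunit that predominates before birth, was highest in cluster 3 at 1392 ± 96.7 CPM, overlapping cluster 2. Grin2a, which follows after birth, reached 105 ± 4.55 in cluster 6. Grin1, the subunit that every NMDA receptor needs, was counted at no more than 49.1 ± 9.20 CPM, in cluster 6, overlapping cluster 3. Per kb of gene span this was 1.75 CPM, against 3.03 for Grin2b in cluster 3. Whether counts scale with gene span was not tested.

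Summed by family, AMPA genes were highest in cluster 1 (2391 ± 142 CPM), NMDA genes in cluster 3 (1512 ± 90.5) and GABA-A genes in cluster 7 (2086 ± 99.0). Kainate genes were highest in cluster 4 (2621 ± 63.3), but in cluster 6 with TMM factors between clusters. The metabotropic and GABA receptor genes were also unevenly spread. Grm5, coupled to phospholipase C, was at 863 ± 121 CPM in cluster 6 and 862 ± 127 in cluster 3, which overlapped. Grm3, an inhibitory receptor that lowers cyclic AMP, was at 296 ± 36.2 CPM in cluster 3 and 6.70 ± 1.49 in cluster 1. Among GABA-A genes, Gabra2 peaked in cluster 7 (1045 ± 38.9 CPM), Gabrb1 and Gabra4 in progenitor-like cluster 4 (516 ± 92.5 and 71.2 ± 11.0), and Gabrg3 in cluster 6 (276 ± 55.7). Both GABA-B subunits are needed for a working receptor at the membrane. Gabbr1 varied little, from 69.2 to 115 CPM, while Gabbr2 ran from 15.6 in cluster 4 to 226 in cluster 6, which overlapped cluster 7.

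**Figure D1:**
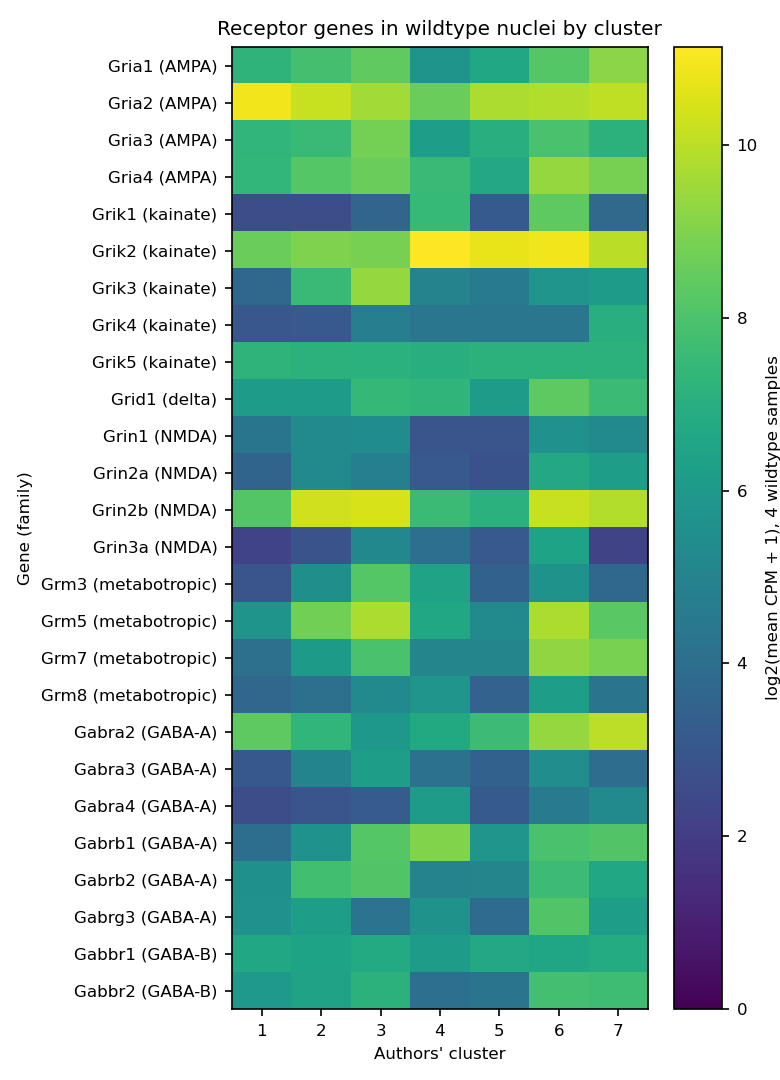
Mean level of 26 of the 31 receptor genes that reach 10 CPM, in the 4 wildtype samples, by the authors' cluster (columns) and gene (rows, with family); colour is log2(mean CPM + 1). Gria2 is brightest in cluster 1 and Grik2 in cluster 4, while Grik5 is nearly even across the 7 clusters.

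Knockout was compared with wildtype by edgeR's quasi-likelihood test on UMIs summed per sample, over all genes, with a gene called at a Benjamini-Hochberg adjusted p under 0.05. Receptor genes were mostly lower in the knockout, above all in deep-layer-like cluster 2. There 18 of the 32 receptor genes tested were called, 3 higher and 15 lower, where 9.11% of all genes tested were called, 3.92% higher and 5.19% lower. Of 35 tested in cluster 3, 11 were called, with 3 higher and 8 lower, where 3.36% of all genes were called, 1.48% higher and 1.88% lower. Cluster 1 had 7 calls among 33 genes, 2 higher and 5 lower, where 4.84% of all genes were called, 2.54% higher and 2.3% lower. Progenitor-like cluster 4 had 5 among 32, 1 higher and 4 lower, where 4.29% of all genes were called, 1.17% higher and 3.12% lower. The median log2 fold change of the receptor genes tested was -0.20, -0.39, -0.19 and -0.14 in clusters 1 to 4, against 0.00, 0.00, 0.00 and 0.01 over all genes tested. The replicate number as a block gave 12 calls in cluster 1, where calls over all genes went from 564 to 800. Sex as a term gave 11 in cluster 4, where calls over all genes went from 512 to 644. Cluster 4 held 2 calls without knockout sample 2 or wildtype sample 2, and 3 without knockout sample 3, wildtype sample 1 or wildtype sample 4. Calls over all genes there were 368 and 396, and 370, 316 and 382, in the same order. Without wildtype sample 3, which stood highest in Ttr, the calls in clusters 1 to 4 numbered 7, 20, 10 and 4, and without wildtype sample 4 they numbered 5, 15, 9 and 3. Calls over all genes in clusters 1 to 4 were 564, 1051, 400 and 512 with all samples. They were 517, 1062, 349 and 445 without wildtype sample 3, and 397, 817, 246 and 382 without wildtype sample 4. The low genes Gabrr2, Grin2c, Grin3b and Grm2 were tested in no cluster.

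No receptor gene was called by edgeR in clusters 5, 6 and 7. In intermediate-progenitor-like cluster 5, 1.77% of all genes were called, 0.868% higher and 0.906% lower. For cluster 6 it was 0.779% of all genes, 0.352% higher and 0.428% lower. For cluster 7 it was 1.03%, 0.578% higher and 0.455% lower. An unadjusted edgeR p under 0.05 was reached by 9 of 31 receptor genes tested in cluster 5. It was reached by 11 of 33 in cluster 6 and 6 of 31 in cluster 7. The share of all genes at that looser threshold is not given here, so these receptor counts cannot be set against the shares called. DESeq2 called 0 in cluster 5, 1 in cluster 6 (Grin2a, adjusted p = 0.0443) and 0 in cluster 7. Cluster 6 held 314 to 623 nuclei per knockout sample and 791 to 1028 per wildtype sample. A block for the replicate number gave 5 calls there, among them adjusted p = 0.0119 for Gabrg3, 0.0187 for Grm5 and 0.026 for Grin2a. The block gave 1 in cluster 7, Gria2 at 0.0335. Leaving out a library also brought calls in clusters 5 and 6, but none in cluster 7. Among them without knockout sample 1 were Grin3a in cluster 5 (0.0220) and Grin2a (0.00667) and Grm3 (0.00286) in cluster 6, and without knockout sample 4 Gria3 (0.0286) and Grm5 (0.0466) in cluster 6.

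Over the 7 cluster comparisons there were 41 calls in 24 genes, 9 higher and 32 lower, and the 4 samples of one group did not overlap those of the other in 38 of them. That is 92.7% of these calls, against 93.6% of the 2906 calls over all genes in the same clusters. Called in 3 clusters were Gria3, Grm3, Grm5 and Gabrg3, and Grik2 was the only gene called in both directions. Grik5, Grin2b and Gabbr1, which all exceeded 100 CPM in at least 1 cluster, were called in none of these fits.

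**Figure D2:**
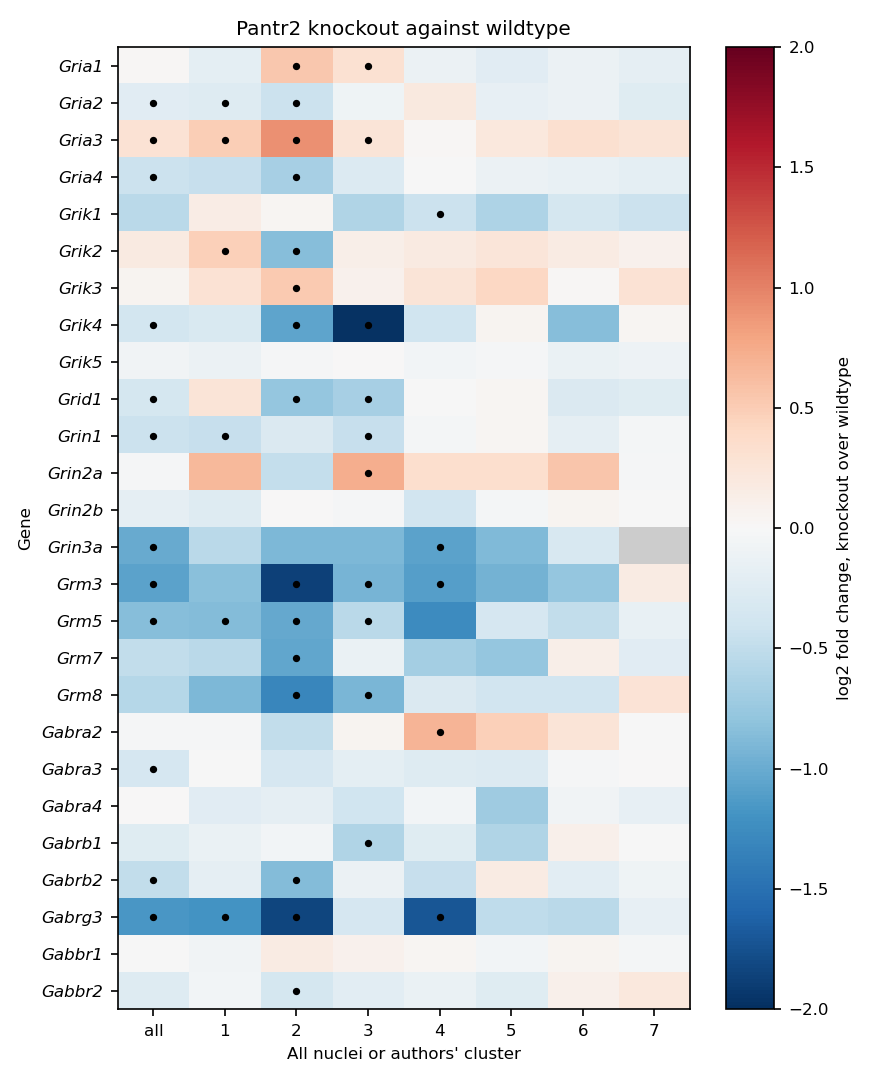
Log2 fold change of knockout over wildtype for 26 of the 31 receptor genes that reach 10 CPM (rows), over all nuclei and in each of the 7 clusters (columns); red is higher and blue lower in the knockout, dots mark edgeR calls at adjusted p under 0.05, and grey cells were not tested. Dots are densest in cluster 2, and clusters 5 to 7 hold none.

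Of the AMPA genes, Gria1 and Gria3 rose and Gria2 and Gria4 fell in cluster 2. The X-linked gene Gria3 was counted there at 159.7, 212, 185 and 196 CPM in wildtype and 356, 401, 357 and 309 CPM in knockout samples, a log2 fold change of 0.92 ± 0.10 (SE), edgeR adjusted p = 7.24e-05. Gria1 was counted at 190.5, 273, 228 and 234 CPM in wildtype and 357, 325, 356 and 306 CPM in knockout samples (0.54 ± 0.10 (SE), edgeR adjusted p = 0.00298). Every knockout sample was above every wildtype sample for both genes. Gria2, the calcium-blocking subunit, stood at 1186, 1138, 1103 and 1212 CPM in wildtype and 874, 867, 827 and 885 CPM in knockout samples (-0.43 ± 0.06 (SE), edgeR adjusted p = 0.000508). Gria4, also a channel subunit, stood at 338, 246, 300.5 and 300.2 CPM in wildtype and 185, 183, 167 and 215 CPM in knockout samples (-0.66 ± 0.10 (SE), edgeR adjusted p = 0.000925). Here every knockout sample was below every wildtype sample. Without TMM factors, the sum of the 4 genes was 1873 ± 72.3 CPM (SD, n = 4) in wildtype and 1737 ± 46.2 in knockout, and the groups overlapped. The values listed above carry TMM factors, and added up per sample they do not overlap, with every knockout sample below every wildtype sample.

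Outside cluster 2 the same directions returned for part of the family. Gria3 was higher in cluster 1 (156, 167, 147 and 162 CPM in wildtype and 223, 242, 232 and 188 in knockout; 0.49 ± 0.08 (SE), edgeR adjusted p = 0.00177). It was also called higher in cluster 3 (0.26 ± 0.06 (SE), edgeR adjusted p = 0.0365). That call was lost, with adjusted p of 0.0796, 0.105 and 0.079 without wildtype samples 1, 2 and 4, and 0.0969 and 0.0891 without knockout samples 2 and 3. Gria1 was higher in cluster 3, at 323, 356, 340.1 and 343 CPM in wildtype and 439, 407, 430.3 and 413 CPM in knockout samples (0.31 ± 0.06 (SE), edgeR adjusted p = 0.00724). Gria2 was lower in cluster 1, where it is most abundant, at 2014, 1855, 1796 and 1913 CPM in wildtype and 1603, 1670.1, 1532 and 1536 CPM in knockout samples (-0.26 ± 0.06 (SE), edgeR adjusted p = 0.0179). The groups did not overlap, but the adjusted p was 0.0623 and 0.0565 without wildtype samples 1 and 4, and 0.0867 without knockout sample 3. Gria4 was called with the replicate block in cluster 1 (adjusted p = 0.00673) and cluster 3 (0.00897), at log2 fold changes of -0.46 and -0.27 in the fit without it. By their transcripts 3 wildtype and 2 knockout samples were female, and with sex as a term Gria3 kept its call in clusters 1 to 3.

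The kainate genes did not move as a group. Grik2 was higher in the knockout in cluster 1, at 440.5, 357, 444 and 364 CPM in wildtype and 625, 553, 562 and 486 CPM in knockout samples (0.47 ± 0.09 (SE), edgeR adjusted p = 0.00582). In cluster 2 it was lower, at 587, 416, 439 and 584 CPM in wildtype and 325, 266, 202 and 330.2 CPM in knockout samples (-0.85 ± 0.15 (SE), edgeR adjusted p = 0.00276). The groups were apart in both clusters, on opposite sides. In progenitor-like cluster 4, where the wildtype mean of Grik2 was highest but overlapped cluster 6, its means were 2249 ± 106 and 2560.2 ± 234 CPM (edgeR adjusted p = 0.24). Grik3 rose in cluster 2, from 167, 176, 216 and 190.2 CPM in wildtype to 239.6, 298, 274 and 264 in knockout (0.52 ± 0.09 (SE), edgeR adjusted p = 0.00211), and was not called in cluster 3, where it is highest (0.08, adjusted p = 0.733).

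Grik4, which forms high-affinity kainate receptors with other subunits, had the largest fall of any receptor gene called. In cluster 3 it was counted at 29.7, 23.3, 20.7 and 32.3 CPM in wildtype and 6.12, 5.26, 5.21 and 9.94 CPM in knockout samples (-1.98 ± 0.21 (SE), edgeR adjusted p = 9.62e-05). These values rest on 538 UMIs over the wildtype and 113 over the knockout samples. It was also lower in cluster 2 (-1.06 ± 0.24 (SE), edgeR adjusted p = 0.014), on 139 UMIs over the wildtype and 64 over the knockout samples. Its adjusted p there was 0.0504 and 0.052 without knockout samples 2 and 3. In cluster 7, where it is highest, Grik4 stood at 139, 116, 126 and 136 CPM in wildtype and 117, 150.1, 111 and 148 in knockout, and the groups overlapped (0.03 ± 0.11, SE). Grik1 was lower in cluster 4, at 162, 174, 158 and 208 CPM in wildtype and 121, 132, 138 and 132 CPM in knockout samples (-0.43 ± 0.09 (SE), edgeR adjusted p = 0.0196). That adjusted p was 0.0552 without wildtype sample 2, and 0.0513 without knockout sample 2.

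Grid1, a delta receptor gene, fell in the deep-layer-like clusters. It was lower in cluster 2, at 72.8, 62.0, 70.6 and 79.6 CPM in wildtype and 47.5, 35.5, 35.2 and 50.2 CPM in knockout samples (-0.77 ± 0.12 (SE), edgeR adjusted p = 0.0013). It was lower in cluster 3 as well (-0.67 ± 0.09 (SE), edgeR adjusted p = 0.00111). No knockout sample reached the lowest wildtype sample in either cluster. In cluster 1 Grid1 went the other way, at 68.7, 64.9, 74.2 and 65.6 CPM in wildtype and 75.8, 80.8, 84.7 and 84.1 in knockout (0.26 ± 0.07 (SE), edgeR adjusted p = 0.0544); with the replicate block it was called (adjusted p = 0.0392).

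**Figure D3:**
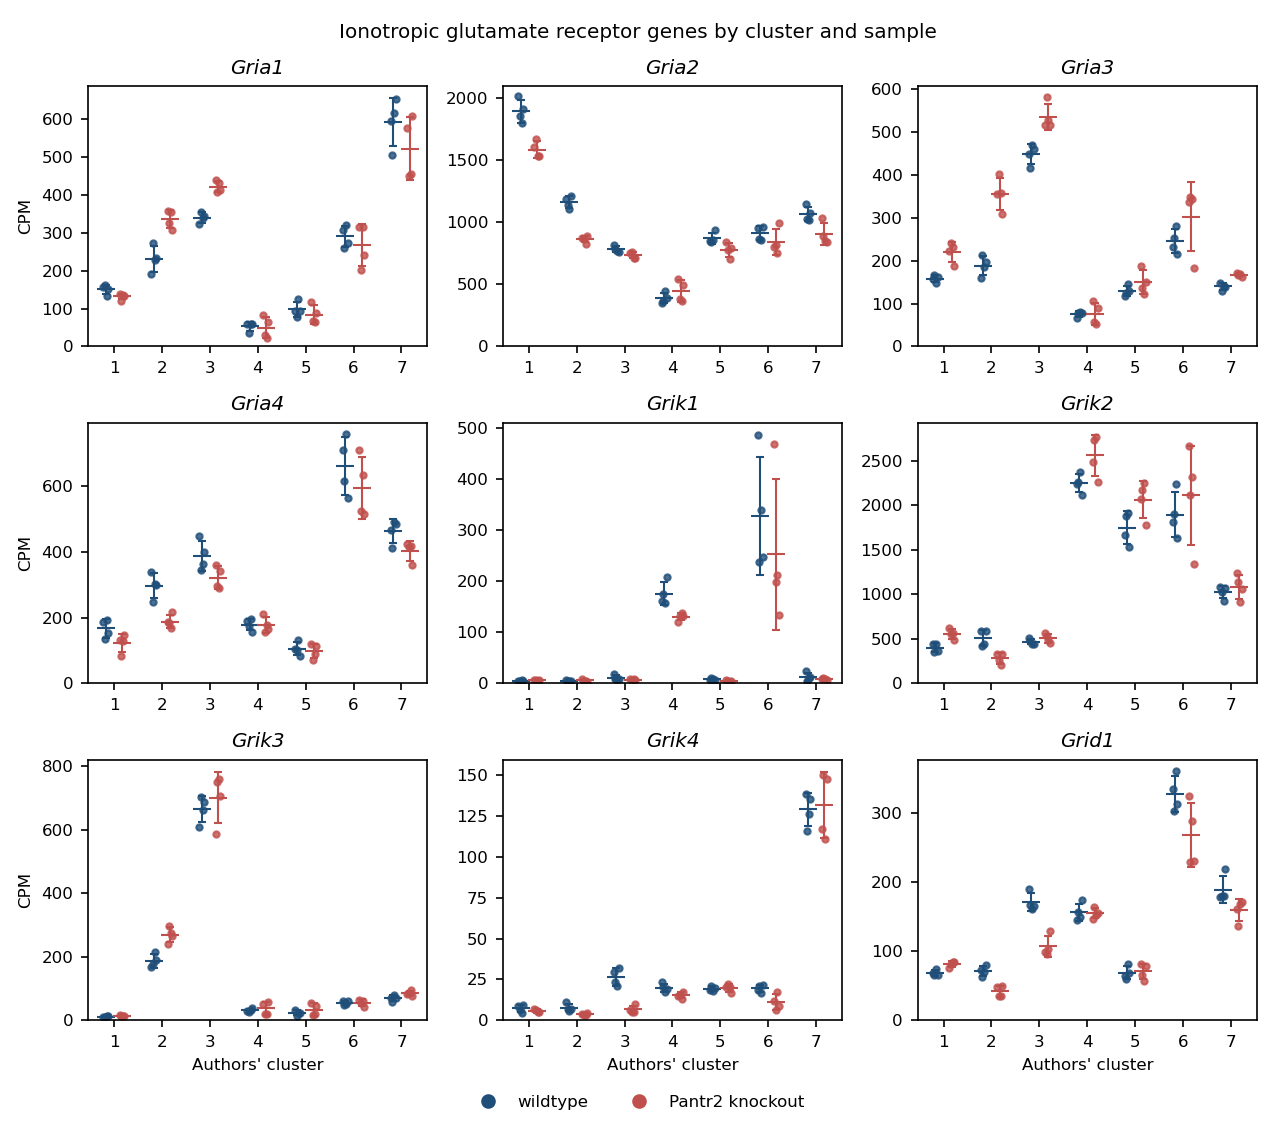
CPM (linear axes from 0) of 9 AMPA, kainate and delta genes in each of the 4 wildtype (blue) and 4 Pantr2 knockout (red) samples by the authors' cluster, with mean ± SD. Grik2 separates in opposite directions in clusters 1 and 2, and Grik4 separates in cluster 3 but not in cluster 7.

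Few NMDA receptor genes were called. Grin2b was within -0.38 and 0.05 on the log2 scale in all 7 clusters, and no main comparison called it. In cluster 1 it was called with the replicate block (adjusted p = 0.0411) and with sex as a term (0.0398), and in cluster 4 with sex as a term (0.0373). In cluster 2 it stood at 1277 ± 89.2 CPM in wildtype and 1286 ± 94.5 in knockout (SD, n = 4). Grin1 was lower in cluster 1 (17.1, 19.7, 19.5 and 20.4 CPM in wildtype and 15.6, 13.2, 14.0 and 13.8 in knockout; -0.47 ± 0.11 (SE), edgeR adjusted p = 0.028) and in cluster 3 (-0.46 ± 0.10 (SE), edgeR adjusted p = 0.019). Neither call was firm. The adjusted p for Grin1 in cluster 1 was 0.0757 with DESeq2, and 0.0748, 0.0664 and 0.0931 without wildtype samples 2, 3 and 4, and 0.129, 0.0916 and 0.0515 without knockout samples 2, 3 and 4. In cluster 3 it was 0.0544 and 0.0537 without wildtype samples 1 and 2, and 0.0738 and 0.0538 without knockout samples 2 and 4. Grin2a was called higher in cluster 3 (0.73 ± 0.18 (SE), edgeR adjusted p = 0.0448), where the groups overlapped. Its adjusted p was 0.107, 0.0871 and 0.143 without wildtype samples 2, 3 and 4, and 0.0729, 0.161 and 0.157 without knockout samples 1, 2 and 3. Grin3a, an NMDA subunit that lowers calcium flow, fell in progenitor-like cluster 4 from 18.8, 13.9, 11.8 and 17.9 CPM in wildtype to 8.48, 6.68, 6.58 and 8.77 CPM in knockout (-1.07 ± 0.19 (SE), edgeR adjusted p = 0.00619). The block called Grin3a in cluster 3 too (adjusted p = 0.0368; -0.90 without it).

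Of the metabotropic genes, 4 of the 5 tested fell in cluster 2, 3 of 5 in cluster 3, and 1 of 5 each in clusters 1 and 4; none was called higher. Grm3 was lower in cluster 2, at 61.6, 32.1, 39.6 and 51.0 CPM in wildtype and 10.7, 11.4, 9.25 and 19.6 CPM in knockout samples (-1.87 ± 0.23 (SE), edgeR adjusted p = 0.000241). In cluster 3 it stood at 311, 267, 265 and 339.7 CPM in wildtype and 151, 115, 151 and 206 CPM in knockout samples (-0.93 ± 0.14 (SE), edgeR adjusted p = 0.00192). In both clusters all knockout samples were below all wildtype samples. It was also called lower in cluster 4 (-1.10 ± 0.26 (SE), edgeR adjusted p = 0.0338). There the adjusted p was 0.0614 with DESeq2, and 0.134, 0.0569, 0.0692 and 0.0722 without wildtype samples 1, 2, 3 and 4, and 0.0851 and 0.0901 without knockout samples 2 and 3. Grm5 was lower in cluster 2 at 455, 474, 324 and 485 CPM in wildtype and 232, 156, 186 and 286 CPM in knockout samples (-1.02 ± 0.17 (SE), edgeR adjusted p = 0.0016). It was also lower in cluster 3 (-0.55 ± 0.09 (SE), edgeR adjusted p = 0.00505) and in cluster 1 (-0.87 ± 0.16 (SE), edgeR adjusted p = 0.00508), again with the groups apart. Grm8, which like Grm7 acts as a presynaptic brake on release, fell in cluster 2 from 22.8, 13.2, 16.3 and 13.3 CPM to 5.21, 5.31, 6.83 and 9.46 CPM (-1.30 ± 0.23 (SE), edgeR adjusted p = 0.00274), on 296 UMIs over the wildtype and 115 over the knockout samples. In cluster 3 it fell too (-0.91 ± 0.16 (SE), edgeR adjusted p = 0.00701).

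Grm7 was called lower in cluster 2 (-1.04 ± 0.26 (SE), edgeR adjusted p = 0.0248), but its groups overlapped, with 76.7, 39.7, 67.8 and 78.5 CPM in wildtype and 28.5, 17.5, 32.8 and 50.9 in knockout. Its adjusted p was 0.0689 with DESeq2, and 0.0747 and 0.0673 without wildtype samples 1 and 4, and 0.0612, 0.0643 and 0.0713 without knockout samples 1, 2 and 3. With the replicate block Grm8 was also called in cluster 1 (adjusted p = 0.0347; -0.89 without it). The family's summed level in cluster 2 was 616 ± 88.0 CPM in wildtype and 321 ± 75.5 in knockout (SD, n = 4), and in cluster 3 it was 1581 ± 211 and 1087 ± 116, without overlap.

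Of the GABA-A receptor genes, 4 of 9 tested fell in cluster 2, 2 of 9 in cluster 1, 1 of 11 in cluster 3 and 1 of 9 in cluster 4. Gabrg3, a gamma subunit gene, had the largest of these changes. It was counted in cluster 2 at 81.4, 90.0, 48.9 and 81.7 CPM in wildtype and 20.5, 15.0, 19.2 and 30.6 CPM in knockout samples (-1.84 ± 0.21 (SE), edgeR adjusted p = 0.000139). In progenitor-like cluster 4 it stood at 61.8, 36.4, 49.9 and 56.0 CPM in wildtype and 22.3, 9.15, 11.0 and 21.3 CPM in knockout samples (-1.72 ± 0.26 (SE), edgeR adjusted p = 0.00269). Cluster 1 had 59.6, 42.5, 38.2 and 56.5 CPM in wildtype and 23.0, 16.0, 14.8 and 35.1 in knockout (-1.20 ± 0.23 (SE), edgeR adjusted p = 0.00571). The groups did not overlap in any of the 3 clusters. In cluster 3 the means were 18.0 ± 4.08 and 14.6 ± 5.06 CPM (SD, n = 4), with no call (adjusted p = 0.532).

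Gabrb2, a beta subunit gene, fell in cluster 2. It was at 249, 223, 185 and 222 CPM in wildtype and 124, 115, 96.0 and 149 CPM in knockout samples (-0.86 ± 0.12 (SE), edgeR adjusted p = 0.000547). The highest wildtype mean of Gabra5 in any cluster was 3.54 CPM, in cluster 3.

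Gabrb1 fell in cluster 3 from 335, 277, 283 and 269.5 CPM in wildtype to 211, 136, 203 and 216 CPM in knockout (-0.61 ± 0.12 (SE), edgeR adjusted p = 0.0142). Gabra2 was the only GABA-A gene called higher, in cluster 4 (0.68 ± 0.16 (SE), edgeR adjusted p = 0.0318). Its groups overlapped at 91.0, 105, 132 and 100.2 CPM in wildtype and 226, 166, 156 and 129 in knockout. The adjusted p was 0.0591 with the replicate block, and 0.126, 0.0932 and 0.097 without wildtype samples 1, 2 and 4, and 0.0638 and 0.0523 without knockout samples 2 and 3. In cluster 2 the block called Gabra2 (adjusted p = 0.0107), with a log2 fold change of -0.50 in the fit without it. Gabbr2 was lower in cluster 2 (-0.35 ± 0.10 (SE), edgeR adjusted p = 0.0396), but the adjusted p was 0.112 and 0.126 without wildtype samples 1 and 4, and 0.094, 0.11, 0.0566 and 0.074 without knockout samples 1, 2, 3 and 4. Its partner Gabbr1 was not called in any cluster (-0.07 to 0.17). The summed GABA-A level in cluster 2 was 1070.2 ± 104 CPM in wildtype and 756 ± 87.5 in knockout (SD, n = 4), without overlap.

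**Figure D4:**
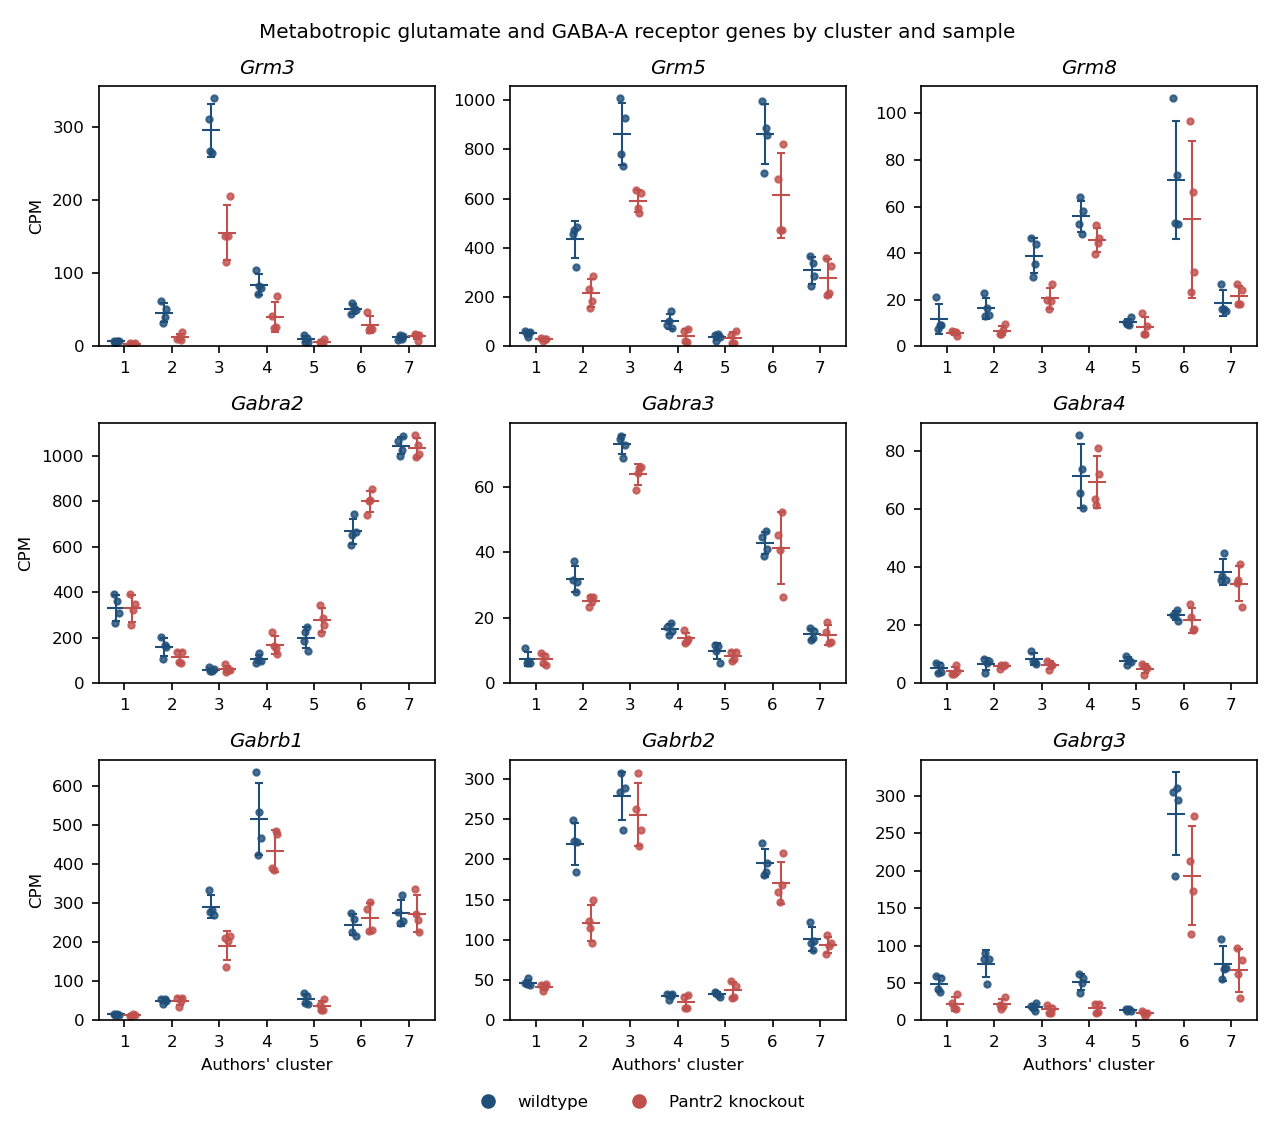
CPM (linear axes from 0) of 3 metabotropic glutamate and 6 GABA-A receptor genes in each of the 4 wildtype (blue) and 4 Pantr2 knockout (red) samples by the authors' cluster, with mean ± SD. Grm3 and Gabrg3 lie below wildtype in all 4 knockout samples of cluster 2, and Gabra2 does not separate in cluster 7.

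Over all nuclei 14 of 40 receptor genes tested were called, 1 higher and 13 lower, where 5.26% of all genes were called, 1.67% higher and 3.58% lower. Gabra3 was called there but in no single cluster (30.8, 30.7, 32.7 and 29.9 CPM in wildtype and 23.8, 22.2, 25.1 and 27.1 in knockout; -0.34 ± 0.07 (SE), edgeR adjusted p = 0.0211). In sums over all nuclei, fewer nuclei of a type and less RNA per nucleus cannot be told apart. Cluster 6, where 13 receptor genes are highest, held fewer nuclei in every knockout sample than in any wildtype sample, and its part in the lower sums was not tested. Only Grin3a (-1.01 ± 0.17 (SE), edgeR adjusted p = 0.0105) kept its call under all 13 alternatives. The number called was 2 without knockout sample 3, 5 without knockout sample 2, and 9 without wildtype sample 3 or 4. Calls over all genes went from 732 to 263, 286, 521 and 362 without these samples, in the same order. The adjusted p of Gabra3 was 0.0519 and 0.0565 without wildtype samples 2 and 3, and 0.0751 and 0.0685 without knockout samples 2 and 3. With the replicate block 20 genes were called, and among those added were Grm8 (adjusted p = 0.00154), Grik1 (0.0212), Gabbr2 (0.0304), Grm7 (0.036) and Gabrb1 (0.0406).

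Whether a genotype effect differed between clusters was tested with limma, on each sample's log2 CPM in 1 cluster minus the mean over its other clusters. Over all receptor genes tested there were 227 pairs of a gene and a cluster, and 25 were called. Cluster 2 had 15 of 32 genes called, cluster 3 had 4 of 35, cluster 7 had 3 of 31, cluster 1 had 2 of 33 and cluster 4 had 1 of 32. The same counts enter the comparisons within clusters, so these calls are no independent support for them. Over all genes 5.57%, 1.4%, 0.588%, 1.7% and 1.99% were called in those clusters, and 0.444% and 0.076% in clusters 5 and 6, where no receptor gene was. The fall of Grik4 was larger in cluster 3 than elsewhere by -1.56 ± 0.18 (SE), limma adjusted p = 0.000465. For Grik2 the difference was 0.49 in cluster 1 (limma adjusted p = 0.000125) and -1.06 in cluster 2 (0.00062). For Grid1 it was 0.58 in cluster 1 (adjusted p = 0.000214), -0.61 in cluster 2 (0.000809) and -0.51 in cluster 3 (0.00965). Gria3 rose more in cluster 2 than elsewhere (0.68 ± 0.09 (SE), limma adjusted p = 0.000122), as did Gria1 (0.67 ± 0.14 (SE), limma adjusted p = 0.00709). Gabrb2 (-0.71 ± 0.07 (SE), limma adjusted p = 1.43e-05) and Grm3 (-1.13 ± 0.17 (SE), limma adjusted p = 0.000692) fell more there. Gabrg3 fell more in clusters 2 (-1.05 ± 0.19 (SE), limma adjusted p = 0.00219) and 4 (-0.95 ± 0.15 (SE), limma adjusted p = 0.00905). An exact two-sided permutation test of the 8 samples gave its smallest possible p, 0.0286, in 21 of the 25 pairs. No other value of this test lies under 0.05, and it is reached only where the groups do not overlap. Among the pairs over 0.05 was Gria1 in cluster 2 (0.0857). The share over the called pairs of all genes is not given here, so the count of 21 is no trait of receptor genes.

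A list of 64 genes that work with these receptors was read beside them, covering auxiliary subunits, scaffolds, transporters and enzymes of both transmitters, of which 63 were in the tables. Of 57 tested in cluster 1, 5 were called higher and 5 lower, and of 56 in cluster 2, 8 were higher and 6 lower. Cluster 3 had 4 of 57 lower, cluster 4 had 6 of 58 lower, and neither had any higher. Cluster 5 had 3 of 51 higher and 1 lower, cluster 6 had 0 of 58 called, and cluster 7 had 1 of 55 lower. Over all genes 4.84%, 9.11%, 3.36%, 4.29%, 1.77%, 0.779% and 1.03% were called in clusters 1 to 7, so the counts in clusters 6 and 7 lie near that share. In cluster 6, 6 partner genes had an unadjusted p under 0.05 by edgeR, a looser threshold than that of the shares called. Of the 12 listed genes for auxiliary AMPA subunits, a group formed after the values were seen, 10 were tested in cluster 2, and 3 were called higher and 1 lower, at a median log2 fold change of 0.11. Gsg1l was at 26.5, 36.9, 35.2 and 35.5 CPM in wildtype and 65.3, 87.8, 78.0 and 57.3 CPM in knockout samples (1.12 ± 0.14 (SE), edgeR adjusted p = 0.000229). Shisa6 was at 110.3, 99.2, 96.7 and 105 CPM in wildtype and 188, 241, 222 and 147 CPM in knockout samples (0.96 ± 0.12 (SE), edgeR adjusted p = 0.000317). The other call higher was Cnih3 (0.33 ± 0.09 (SE), edgeR adjusted p = 0.0304), with adjusted p of 0.0503 with sex as a term, and 0.092 and 0.0822 without wildtype samples 1 and 4, and 0.0802 and 0.11 without knockout samples 1 and 3. Shisa9 was the one called lower (-1.21 ± 0.28 (SE), edgeR adjusted p = 0.0135), with adjusted p of 0.0564 without knockout sample 3. The synaptic scaffold genes Dlg1 and Dlg2 moved apart in cluster 2, Dlg1 by 0.63 ± 0.10 (SE), edgeR adjusted p = 0.00118 and Dlg2 by -1.05 ± 0.16 (SE), edgeR adjusted p = 0.000854. Kctd8, an auxiliary GABA-B subunit, rose in cluster 1 from 7.37, 7.33, 7.83 and 9.15 CPM to 34.2, 32.6, 25.0 and 19.2 CPM (1.79 ± 0.18 (SE), edgeR adjusted p = 5.07e-05), and it rose in cluster 2 (0.87 ± 0.17 (SE), edgeR adjusted p = 0.00452). It was called lower in cluster 3 (-0.66 ± 0.16 (SE), edgeR adjusted p = 0.0338), where the groups overlapped. There its adjusted p was 0.0712, 0.0886 and 0.0972 without wildtype samples 1, 3 and 4, and 0.0736, 0.107 and 0.122 without knockout samples 1, 2 and 3. The replicate block added calls for Kctd8 in cluster 7 (adjusted p = 0.0164) and for Slc6a11, a GABA transporter gene, in cluster 3 (0.0473).

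In progenitor-like cluster 4 the partner genes called included genes that clear or break down transmitter, and a scaffold gene. The GABA transporter gene Slc6a11 fell from 31.8, 27.9, 31.6 and 37.4 CPM to 7.96, 10.5, 5.00 and 10.8 CPM (-1.90 ± 0.19 (SE), edgeR adjusted p = 0.000142). Abat, which degrades GABA, fell from 35.8, 32.4, 20.6 and 40.9 CPM to 13.2, 11.6, 12.1 and 12.5 CPM (-1.41 ± 0.18 (SE), edgeR adjusted p = 0.000782). The glial glutamate transporter genes Slc1a2 (-1.20 ± 0.20 (SE), edgeR adjusted p = 0.00447) and Slc1a3 (-0.52 ± 0.08 (SE), edgeR adjusted p = 0.00311) were lower as well, and so was the scaffold gene Shank2, at -0.39. The name Shank2 was added after its value was seen. In the same cluster the apical progenitor list, which includes Slc1a3, summed to 1936 to 2347 CPM per wildtype and 1535 to 1620.01 CPM per knockout sample, with 2 of 7 markers called lower. The oligodendrocyte lineage list summed to 9.39 to 11.6 CPM in wildtype and 1.35 to 2.94 in knockout samples, and the endothelium and pericyte list to 28.5 to 31.6 and 11.8 to 16.4 CPM. The part of these lists in the receptor results of cluster 4 was not tested.

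Markers of neuron classes also differed between the genotypes, in clusters with and without called receptor genes. The 8 deep-layer markers summed in cluster 2 to 8171 to 10019.6 CPM per wildtype and 11245.6 to 13432.5 CPM per knockout sample, with 4 called higher, and none stood at 0. In cluster 1 they summed to 2432 to 2920.52 and 3786 to 5196 CPM, again with 4 called higher. In clusters 5, 6 and 7, where no receptor gene was called, every knockout sum was also above every wildtype sum. In cluster 5 these were 2450 to 2675 CPM in wildtype and 3108 to 3980 in knockout samples. The markers called higher there numbered 2, 1 and 1 in clusters 5, 6 and 7. In clusters 3 and 4 the sums of the 2 groups overlapped. The upper-layer markers Cux1 and Cux2 were lower in cluster 2, at 129 and 124 CPM in wildtype and 41.8 and 64.3 in knockout. Interneuron markers, 6 of 8 in the tables, were low and lower still in the knockout: 42.7 to 55.9 CPM summed per wildtype and 20.1 to 37.4 per knockout sample of cluster 2, with 3 called lower. The part of these shifts in the receptor results was not tested.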

How the data were processed

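Nuclear RNA of 4 wildtype and 4 Pantr2 knockout samples was counted with the 10x Genomics single-cell kit for transcript ends, per the labels' protocols. The submitters' processing notes name kallisto, bustools and mm10, without versions. The deposited values are UMI counts per gene and nucleus, not normalized, per the file headers. The authors' deposited doublet scores have no stated unit; all deposited nuclei were kept. Their cluster numbers were used as they stand. Gene positions in the deposited tables name no build and were used only for gene spans, neighbours and overlaps.

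Each sample's UMIs were added up, over all its nuclei and within each cluster, and compared with edgeR 4.0.16 in R 4.3.3 (TMM, filterByExpr, quasi-likelihood test, genotype as the only term), with Benjamini-Hochberg adjustment over all genes tested and a threshold of 0.05. Differences between clusters were tested with limma 3.58.1. DESeq2 1.42.0 served as an alternative. Levels of single genes are CPM with TMM factors within a comparison; sums of genes are CPM without them. The scripts were tested on simulated data.

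Same-numbered samples were taken as pairs for the block, since their deviations from the group means correlated across genes at 0.398, 0.185, 0.192 and 0.179 for numbers 1 to 4 (threshold 0.1; different numbers gave -0.36 to 0.29). Wildtype sample 3 with knockout sample 4 reached 0.287, above the same-number values of 0.185, 0.192 and 0.179. The pairing comes from this check, which does not single it out, and the labels do not state it. Calls with the block rest on this assumed pairing. The cell tables give 1 library date for all samples.

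The receptor genes, the partner list and the markers were chosen with earlier results of these data known. Named genes were all receptor genes called in any comparison, the 3 most abundant per family, the 10 with the widest range between clusters, and the 12 called partner genes with the smallest adjusted p. A marker gene and some genes of the receptor and partner lists are not reported here, and the targeted gene was not analysed here.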

Additional observations from a re-analysis of the deposited data

Results flagged for a closer look

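In 3 of 96 groups of 4 samples checked, 1 sample lay far from the other three by Dixon's criterion, which chance meets in about 1 group in 20. Over all nuclei Grik4 was at 28.2 CPM in wildtype sample 4 against 25.1 to 25.5 in the others, and at 23.9 in knockout sample 4 against 18.6 to 19.5. In cluster 3, Gabrb1 was at 136 CPM in knockout sample 2 against 203 to 216.

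The effect of genotype differed between 1 cluster and the mean of the others by limma's test in 25 pairs of gene and cluster, of which 23 are given here; differences are in log2 CPM, knockout minus wildtype. In cluster 2 they were 0.67 for Gria1, -0.31 for Gria2, 0.68 for Gria3 and -0.45 for Gria4 among AMPA genes. Also in cluster 2 they were -1.06 for Grik2, -0.61 for Grid1, -0.83 for Grin2a, -1.13 for Grm3, -0.69 for Grm7 and -0.79 for Grm8. The GABA-A genes in cluster 2 gave -0.71 for Gabra2, -0.71 for Gabrb2 and -1.05 for Gabrg3. Cluster 1 gave 0.58 for Grid1 and 0.49 for Grik2. Cluster 3 gave -0.47 for Gabrb1, 0.68 for Gabrg3, -0.51 for Grid1 and -1.56 for Grik4, and cluster 4 gave -0.95 for Gabrg3. Cluster 7 gave 0.74 for Grik4, 0.63 for Grm5 and 0.94 for Grm8, whose log2 fold changes within cluster 7 were 0.03, -0.15 and 0.27, none of them called.

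Of these 23, 3 lost their call without single libraries. For Grm7 in cluster 2 the limma adjusted p was 0.0874, 0.0894 and 0.144 without wildtype samples 1, 3 and 4, and 0.114 and 0.118 without knockout samples 1 and 2. For Grm8 in cluster 2 it was 0.108, 0.0642, 0.0870 and 0.0562 without wildtype samples 1 to 4, and 0.0755, 0.0679 and 0.0597 without knockout samples 1 to 3. For Gabrg3 in cluster 3 it was 0.130, 0.118 and 0.0512 without wildtype samples 1, 3 and 4, and 0.0931, 0.0702 and 0.0857 without knockout samples 1 to 3.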

How the results depend on the processing

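The alternatives were DESeq2, RLE factors, no filter on low counts, a replicate block, sex as a term and leaving out each sample. The number of receptor genes called stayed within 1.5 times its value under DESeq2, RLE factors and no filter in all comparisons except cluster 6, where DESeq2 called 1. With the replicate block 12 were called in cluster 1, 5 in cluster 6 and 1 in cluster 7, and with sex as a term 11 in cluster 4. Leaving out 1 sample gave 2 to 15 calls over all nuclei, 5 to 8 in cluster 1, 14 to 20 in cluster 2, 8 to 10 in cluster 3, 2 to 7 in cluster 4, 0 to 1 in cluster 5, 0 to 3 in cluster 6 and 0 in cluster 7. Calls over all genes were then 263 to 994 in all nuclei, 335 to 647 in cluster 1 and 738 to 1074 in cluster 2. They were 192 to 438 in cluster 3, 316 to 534 in cluster 4 and 101 to 189 in cluster 5. In clusters 6 and 7 they were 51 to 148 and 63 to 142. In the 24 genes called within a cluster, the count of differences between clusters was 21 to 36. Of their 165 pairs of gene and cluster, 29 had an exact permutation p under 0.05, and the share over all genes is not given here. Under all 13 alternatives 1 of 14 calls over all nuclei was kept, 4 of 7 in cluster 1, 14 of 18 in cluster 2, 8 of 11 in cluster 3 and 2 of 5 in cluster 4. No called fold change of a receptor gene changed sign.

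Over all genes, calls in all nuclei numbered 732 in the main comparison, 1215 with DESeq2 and 1344 with the block; in cluster 3 they were 400 and, with the block, 652. In cluster 6 they were 82 and 253, and in cluster 7 they were 109 and 255, without and with the block. In cluster 1 they were 564 and, with the block, 800, and in cluster 4 they were 512 and, with sex as a term, 644. The cause of these changes was not tested. Of 49 wildtype family levels by cluster, 6 moved by over 1 SD as a mean of CPM per nucleus and 16 with TMM factors between clusters. Genes under 10 CPM limit what this depth can show.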
